A study of Mus musculus with 10 samples.

Results

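The gasdermin genes Gsdma, Gsdmc, Gsdmc2, Gsdmc3, Gsdmc4 and Gsdmd were followed in RNA sequencing of 5 parts of the mouse gut. These 6 genes, of 23079 in the table, were chosen by name because of how their levels differed along the gut and between operations in these same libraries. Their own values are therefore given as a description and without a test. Tests are given for other genes of the pathway. Stomach, duodenum, jejunum, ileum and colon were each sampled after vertical sleeve gastrectomy (VSG) and after sham surgery. VSG cuts away the lateral 80% of the stomach and leaves a tube of about 20%. Sham-operated mice had the abdomen opened and hemostats pressed gently on the stomach. All mice were male C57BL/6J animals aged 17 weeks kept for 13 weeks on high-fat diet. They went without food overnight before the operation, and all took a liquid diet (Osmolite) for the first 3 days after it. The labels give 1 library for each tissue and operation, 10 in all, and state neither the number of animals behind a library nor the day of sampling. A difference within a tissue thus has no replicate check.

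Gasdermins are pore-forming proteins. The amino-terminal part of the protein makes pores in membranes and is held inactive by the carboxy-terminal part until a protease cuts the linker between them. Pores of this kind release cytokines such as interleukin-1β and can kill the cell by pyroptosis. Gsdmd is the substrate of the inflammatory caspases, and neutrophil elastase and cathepsin G can cut it too. Gsdma is known from skin and the upper digestive tract. Mice carry a group of neighbouring Gsdmc genes where humans have a single one, and Gsdmc2, Gsdmc3 and Gsdmc4 are known to be induced in mouse intestinal epithelium by type 2 cytokines during worm infection.

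On the mouse assembly GRCm38, the Gsdmc genes stood side by side on chromosome 15. Gsdmc lay at chr15:63775971-63808739, Gsdmc2 at chr15:63824328-63845193, Gsdmc3 at chr15:63857605-63878579 and Gsdmc4 at chr15:63891140-63912319. Gsdmd lay elsewhere on the same chromosome, at chr15:75862144-75867408. Gsdma was at chr11:98664337-98677708, next to Gsdma2 and Gsdma3. The first 60 coding bases of the Gsdmc genes are shown because they show how far reads can be assigned to single copies. They are annotated coding exons (GENCODE M21), read 5′ to 3′ from the start codon, and capitals mark bases that differ from Gsdmc4.
Gsdmc: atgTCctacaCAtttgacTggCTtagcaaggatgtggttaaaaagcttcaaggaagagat
Gsdmc2: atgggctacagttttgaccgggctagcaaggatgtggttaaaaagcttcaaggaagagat
Gsdmc3: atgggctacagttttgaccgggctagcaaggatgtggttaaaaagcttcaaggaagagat
Gsdmc4: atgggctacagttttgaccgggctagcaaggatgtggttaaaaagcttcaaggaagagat
Gsdmc2, Gsdmc3 and Gsdmc4 were the same in this stretch, and Gsdmc differed at 7 bases. The last 60 bases before the stop codon separated these 3 copies at a few positions. Capitals again mark bases that differ from Gsdmc4.
Gsdmc2: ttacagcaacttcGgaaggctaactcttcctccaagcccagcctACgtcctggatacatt
Gsdmc3: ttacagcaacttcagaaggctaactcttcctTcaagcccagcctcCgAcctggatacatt
Gsdmc4: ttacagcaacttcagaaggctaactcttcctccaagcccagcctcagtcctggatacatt
Over the whole coding sequence, Gsdmc2 and Gsdmc3 were 97.1% identical, Gsdmc2 and Gsdmc4 92.9%, and Gsdmc3 and Gsdmc4 93.0%. Gsdmc was 82.5% to 83.8% identical to the other copies. Of all stretches of 50 coding bases, 47.7% in Gsdmc2, 46.6% in Gsdmc3 and 50.6% in Gsdmc4 also occurred in another gene of the group, against 17.5% in Gsdmc. How reads that match several copies were counted is not given in the sources used here, so the values of the single copies Gsdmc2, Gsdmc3 and Gsdmc4 are uncertain. The sum of these 3 copies was 35.2 RPKM in VSG stomach and 12.1 RPKM in sham stomach, 0.932 RPKM in VSG duodenum and 0.258 RPKM in the library labelled sham duodenum, 14.6 RPKM in VSG jejunum and 5.00 RPKM in sham jejunum. It was 161 RPKM in VSG ileum and 76.2 RPKM in sham ileum, and 915 RPKM in VSG colon and 934 RPKM in sham colon. Gsdma and Gsdma2 were 89.4% identical, and 15.8% of the 50-base stretches of Gsdma were shared. The level of Gsdma is thus uncertain in stomach, where Gsdma2 stood far above it.

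The values are RPKM, reads scaled to gene length and library depth, so levels of different genes may be compared. Between 36073938 and 79351407 reads per library were recovered from the steps in the deposited values. The intervals below are 95% intervals of these reads, which cover counting error only. The library labelled sham duodenum stood apart. The summed level of 6 genes of gut epithelium was 2745 RPKM in VSG duodenum, against 6.11 RPKM in the library labelled sham duodenum. The 6 genes of neurons and glia summed to 12.3 RPKM in VSG duodenum and to 1444 RPKM in that library. Its values are printed for the gasdermins, but it was left out of the fits and profile comparisons below, apart from the alternative with all 5 tissues. The stomach pair also differed in make-up. Genes of parietal and chief cells summed to 1615 RPKM in VSG stomach and 109248 RPKM in sham stomach, and 5 liver genes to 12672 RPKM in VSG stomach and 63.4 RPKM in sham stomach.

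The Gsdmc group was a colon group with a second, lower level in ileum. Gsdmc4 had 358 RPKM in VSG colon and 356 RPKM in sham colon, the 140th and the 126th highest of all 23079 genes. In ileum it had 60.7 RPKM after VSG and 30.8 RPKM after sham, and in jejunum 6.88 RPKM after VSG and 2.72 RPKM after sham. The stomach values of Gsdmc4, 6.48 RPKM after VSG and 2.30 RPKM after sham, overlapped those of jejunum. The lowest values were in duodenum, with 0.537 RPKM after VSG and 0.0797 RPKM in the library labelled sham duodenum.

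Gsdmc3 had 306 RPKM in VSG colon and 325 RPKM in sham colon, 54.6 RPKM in VSG ileum and 25.1 RPKM in sham ileum. In stomach it had 11.5 RPKM after VSG and 3.81 RPKM after sham, and in jejunum 4.25 RPKM after VSG and 1.16 RPKM after sham. The order was colon, ileum, then stomach and jejunum, whose values overlapped. Gsdmc2 had 251 RPKM in VSG colon and 253 RPKM in sham colon, 45.7 RPKM in VSG ileum and 20.3 RPKM in sham ileum. In stomach Gsdmc2 had 17.3 RPKM after VSG and 6.00 RPKM after sham, and in jejunum 3.49 RPKM after VSG and 1.12 RPKM after sham, so that its tissues from colon to jejunum did not overlap. In duodenum Gsdmc3 had 0.269 RPKM after VSG and 0.107 RPKM in the library labelled sham duodenum, and Gsdmc2 had 0.125 and 0.0718 RPKM in the same libraries.

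Gsdmc itself was the weakest of the group in the intestine and ranked stomach above ileum. It had 25.0 RPKM in VSG colon and 24.2 RPKM in sham colon, 8.55 RPKM in VSG stomach and 6.77 RPKM in sham stomach. In ileum Gsdmc had 4.75 RPKM after VSG and 1.92 RPKM after sham, and in jejunum 0.395 RPKM after VSG and 0.160 RPKM after sham. Gsdmc rested on 5 reads in VSG duodenum and 2 reads in the library labelled sham duodenum. No 2 of its tissues overlapped. Averaged over both operations, colon stood 7.37-fold above ileum for Gsdmc, 7.63-fold for Gsdmc2, 7.93-fold for Gsdmc3 and 7.80-fold for Gsdmc4. The averaged step was thus of a like size in every copy, but the ileum values under it differed between the operations. The part of shared reads in this likeness was not tested. The colon level stood 3.21-fold above stomach for Gsdmc, 21.6-fold for Gsdmc2, 41.4-fold for Gsdmc3 and 81.4-fold for Gsdmc4.

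**Figure D1:**
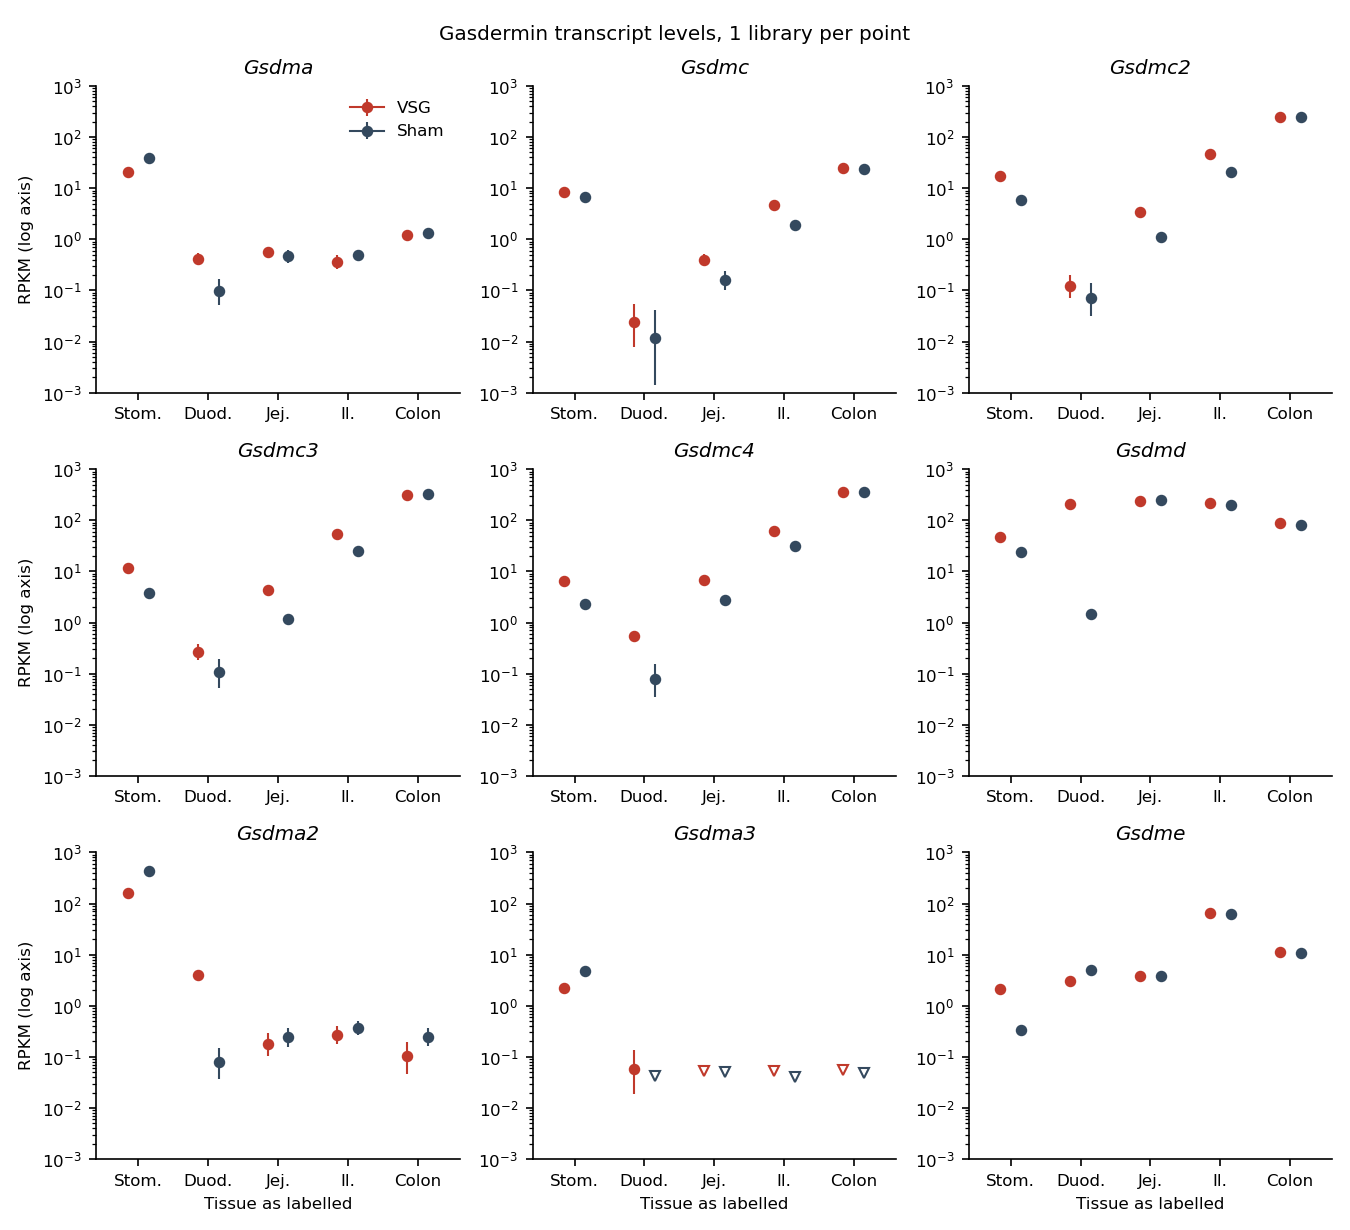
RPKM (log axis) of the 6 gasdermin genes and of Gsdma2, Gsdma3 and Gsdme in 5 tissues, with VSG in red left of sham in dark blue; each point is 1 library, bars are 95% counting intervals and open triangles mark the floor of 3 reads where a library had 0 reads. Gsdmc2, Gsdmc3 and Gsdmc4 climb to between 251 and 358 RPKM in colon, Gsdmd stays between 79.3 and 255 RPKM in jejunum, ileum and colon, and Gsdma and Gsdma2 are highest in stomach.

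In a fit over stomach, jejunum, ileum and colon (8 libraries, operation as a term), the difference of colon from the mean of the other 3 tissues was 2.85 ± 0.20 on the log2(RPKM + 1) scale for Gsdmc. It was 4.61 ± 0.29 for Gsdmc2, 4.99 ± 0.31 for Gsdmc3 and 5.08 ± 0.25 for Gsdmc4 (estimate ± standard error). All genes tested had a median difference of 0.29 in that comparison, and 8.21% of them were at least 2-fold higher in colon with an adjusted p under 0.05 and 4.38% lower. The Gsdmc genes were chosen for this pattern, so nothing is read from their place in it.

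The balance among the copies differed between stomach and intestine. Gsdmc2 stood at 2.67 times the level of Gsdmc4 in VSG stomach (2.44 to 2.93) and 2.61 times in sham stomach (2.32 to 2.95). In the intestine Gsdmc4 was the higher one. The ratio of Gsdmc2 to Gsdmc4 was 0.508 in VSG jejunum and 0.413 in sham jejunum, 0.752 in VSG ileum and 0.661 in sham ileum, and 0.701 in VSG colon and 0.710 in sham colon. The ratio of Gsdmc3 to Gsdmc4 followed the same split, with 1.77 in VSG stomach and 1.66 in sham stomach, against 0.429 to 0.913 in jejunum, ileum and colon.

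Gsdmc showed the widest shift. Its ratio to Gsdmc4 was 1.32 (1.20 to 1.45) in VSG stomach and 2.95 (2.64 to 3.30) in sham stomach. In jejunum, ileum and colon it lay between 0.0574 and 0.0782, and the part of shared reads in these ratios was not tested. As a share of the summed level of the group, Gsdmc made up 19.5% in VSG stomach and 35.9% in sham stomach, and 2.46% to 3.11% in the 6 libraries of jejunum, ileum and colon. Within the sampled pairs, the stomach ratios of Gsdmc2 and Gsdmc3 to Gsdmc4 had overlapping intervals after VSG and sham, and those of Gsdmc did not.

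**Figure D2:**
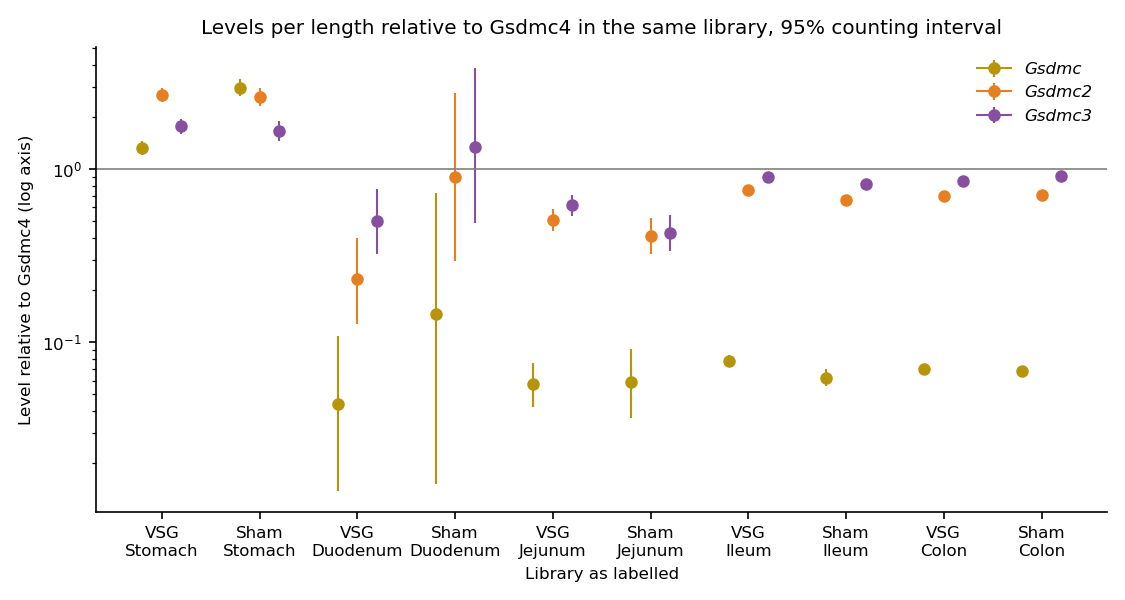
Level per length of Gsdmc, Gsdmc2 and Gsdmc3 relative to Gsdmc4 in the same library (log axis), for the 10 libraries with VSG left of sham in each tissue; bars are 95% counting intervals and the grey line marks equal levels. All 3 genes lie above the line in both stomach libraries, and Gsdmc lies between 0.0574 and 0.0782 in jejunum, ileum and colon.

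After VSG the Gsdmc group was higher than after sham in stomach, jejunum and ileum, while the colon values were nearly equal. The summed level of the 4 genes was 43.8 RPKM in VSG stomach and 18.9 RPKM in sham stomach, 15.0 RPKM in VSG jejunum and 5.16 RPKM in sham jejunum. It was 166 RPKM in VSG ileum and 78.2 RPKM in sham ileum, and 940.3 RPKM in VSG colon and 958 RPKM in sham colon. In these bulk samples, fewer cells of a type and less RNA per cell cannot be told apart.

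In ileum the VSG to sham ratio was 2.47 for Gsdmc (2.17 to 2.83), 2.25 for Gsdmc2 (2.13 to 2.36), 2.17 for Gsdmc3 (2.07 to 2.28) and 1.97 for Gsdmc4 (1.89 to 2.06). Gsdmc2 and Gsdmc3 were at least 2-fold higher on the log2(RPKM + 1) scale, with differences of 1.13 and 1.09, and Gsdmc and Gsdmc4 fell just short at 0.98 and 0.96. Of the 12202 genes measured in ileum at a mean of at least 1 RPKM, 0.148% (18 genes) were at least 2-fold higher after VSG and 0.123% lower. The genes were picked with these differences in view, so this share is given for scale only. Genes of gut epithelium were higher after VSG in 6 of 6 cases in ileum, with sums of 4710.1 RPKM after VSG and 4026 RPKM after sham, and 5 tuft cell genes summed to 9.69 RPKM after VSG and 7.30 RPKM after sham. Genes of small intestinal enterocytes were lower after VSG in 6 of 8 cases, with sums of 18985 RPKM after VSG and 20523 RPKM after sham. Macrophage genes were higher in 6 of 6 cases, with 1024 RPKM after VSG and 829 RPKM after sham. Most of both sums was Lyz2, with 958 RPKM after VSG and 774 RPKM after sham. Smooth muscle genes were lower in 5 of 5 cases, with 675 RPKM after VSG and 881 RPKM after sham. The part of these cells in the ileum result was not tested.

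In jejunum the VSG to sham ratio was 2.46 for Gsdmc (1.48 to 4.21), on 53 reads after VSG and 23 reads after sham. It was 3.11 for Gsdmc2 (2.48 to 3.93), 3.65 for Gsdmc3 (2.92 to 4.61) and 2.53 for Gsdmc4 (2.16 to 2.97). Gsdmc2, Gsdmc3 and Gsdmc4 differed by 1.08, 1.28 and 1.08 on the log2(RPKM + 1) scale, where 0.762% of 11681 genes were at least 2-fold higher and 0.3% lower. Genes of gut epithelium were not higher after VSG in any of 6 cases in jejunum, with sums of 2689 RPKM after VSG and 3047 RPKM after sham, and 8 enterocyte genes summed to 30435 RPKM after VSG and 43093 RPKM after sham. Macrophage genes were higher in 6 of 6 cases, with sums of 449 RPKM after VSG and 218 RPKM after sham. Most of both sums was Lyz2, with 373 RPKM after VSG and 163 RPKM after sham. Pancreatic acinar genes summed to 202 RPKM after VSG and 1.69 RPKM after sham. The part of these cells in the result was not tested.

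In stomach Gsdmc2 was 2.89-fold higher after VSG (2.68 to 3.11), Gsdmc3 3.01-fold (2.73 to 3.32) and Gsdmc4 2.82-fold (2.48 to 3.22). Gsdmc was 1.26-fold higher (1.18 to 1.35). There 12.9% of 13367 genes were at least 2-fold higher after VSG, Gsdmc2, Gsdmc3 and Gsdmc4 among them. Genes of small intestinal enterocytes were higher after VSG in 7 of 8 cases in stomach. Their sums were 734 RPKM after VSG and 104 RPKM after sham. Most of the VSG sum was Fabp1, with 550 RPKM after VSG and 13.1 RPKM after sham. Apoa4 had 134 RPKM after VSG and 39.7 RPKM after sham. Fabp2 went the other way, with 40.5 RPKM after VSG and 46.8 RPKM after sham. In this pair liver genes summed to 12672 RPKM after VSG and 63.4 RPKM after sham. Colonocyte genes were higher in 4 of 6 cases, with sums of 190.5 RPKM after VSG and 73.9 RPKM after sham. Most of both sums was Krt20, with 167 RPKM after VSG and 68.6 RPKM after sham, a gene higher in jejunum and ileum than in colon. Genes common to gut epithelium were higher in 4 of 6 cases, with sums of 1882 RPKM after VSG and 1831 RPKM after sham. Their part in the stomach result was not tested.

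In colon the VSG to sham ratio was 1.03 for Gsdmc (0.983 to 1.08), 0.993 for Gsdmc2 (0.975 to 1.01), 0.943 for Gsdmc3 (0.927 to 0.959) and 1.005 for Gsdmc4 (0.989 to 1.02). On the deposited scale the interval of Gsdmc3 alone lay below 1. After rescaling to 1 total the ratios were 1.01 for Gsdmc, 0.971 for Gsdmc2, 0.922 for Gsdmc3 and 0.983 for Gsdmc4. No intervals were made on that scale, so Gsdmc3 is not set apart from the other copies. None of the Gsdmc genes reached 2-fold in colon, where 0.432% of 12970 genes were at least 2-fold higher after VSG and 0.0463% lower. Across stomach, jejunum, ileum and colon, with the tissue as a block, the fitted VSG minus sham difference on the log2(RPKM + 1) scale was 0.90 ± 0.25 for Gsdmc2 and 0.91 ± 0.27 for Gsdmc3. It was 0.81 ± 0.22 for Gsdmc4 and 0.40 ± 0.17 for Gsdmc. In that fit 0% of 13357 genes passed an adjusted p of 0.05 in limma with Benjamini-Hochberg adjustment, in either direction. An unadjusted limma p under 0.05 was found for 349 genes, a smaller share than the 0.05 awaited without any effect. With 1 library per tissue and operation, that fit measures the shared difference against its unevenness over the tissues. In stomach 12.9% of genes were at least 2-fold higher after VSG, against 0.762% in jejunum and 0.148% in ileum. The small share thus does not show that the operation had no effect.

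**Figure D3:**
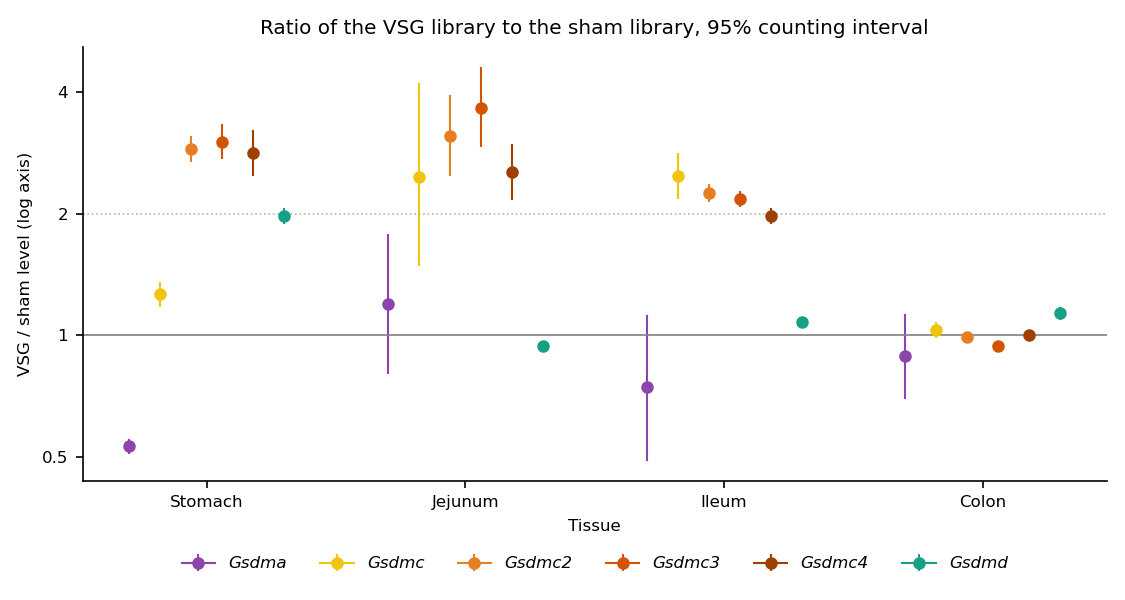
Level in the VSG library divided by the level in the sham library (log axis) for the 6 gasdermin genes in stomach, jejunum, ileum and colon; bars are 95% counting intervals, the solid line marks 1 and the dotted line 2. The 4 Gsdmc genes lie between 1.26 and 3.65 in stomach, jejunum and ileum and between 0.943 and 1.03 in colon.

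Gsdma was a stomach gene. It had 21.1 RPKM in VSG stomach and 39.6 RPKM in sham stomach. The next tissue was colon, with 1.20 RPKM after VSG and 1.36 RPKM after sham. The jejunum values of 0.557 RPKM after VSG and 0.466 RPKM after sham overlapped the ileum values of 0.367 RPKM after VSG and 0.492 RPKM after sham. Gsdma in duodenum was 0.417 RPKM after VSG and 0.0990 RPKM in the library labelled sham duodenum. The fitted difference of stomach from jejunum, ileum and colon was 4.14 ± 0.21 on the log2(RPKM + 1) scale, in a comparison where 9.01% of genes tested were higher in stomach.

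In stomach Gsdma was lower after VSG, at 0.532 times the sham level (0.509 to 0.556), and 3.94% of genes in stomach were at least 2-fold lower. Gsdma, with a difference of -0.88 on the log2(RPKM + 1) scale, was not among them. Its neighbours moved the same way in this pair. Gsdma2 had 164 RPKM in VSG stomach and 430.0 RPKM in sham stomach, 0.383 times (0.376 to 0.389), and it was the 407th and the 98th highest gene of these libraries. Gsdma3 had 2.27 RPKM in VSG stomach and 4.79 RPKM in sham stomach, 0.474 times (0.394 to 0.567), and was listed at 0 in jejunum, ileum and colon. Gsdma stood at 0.128 times the level of Gsdma2 in VSG stomach and 0.0922 times in sham stomach. The part of shared reads in the like direction of these neighbours was not tested.

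The mouse forestomach is lined by squamous epithelium, and 9 marker genes of that tissue summed to 3330 RPKM in VSG stomach and 4218 RPKM in sham stomach, against 2.18 to 4.46 RPKM in jejunum, ileum and colon. Of these 9 genes, 2 were higher after VSG (Krt5 and Krt14, keratins of the basal layer) and 7 lower. Other genes of the basal layer were among the lower ones, with 11.4 RPKM of Krt15 in VSG stomach and 29.0 RPKM in sham stomach, and 4.87 RPKM of Trp63 in VSG stomach and 5.23 RPKM in sham stomach. Genes of gastric surface mucous cells were lower in 5 of 5 cases, with sums of 27892 RPKM in VSG stomach and 52426 RPKM in sham stomach. Their part in the lower Gsdma was not tested.

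The genes whose profile over 9 libraries (without the library labelled sham duodenum) was most like Gsdma were Scel, Tmem40, Sp6, Dmkn and Krt80, with Pearson r of log2(RPKM + 1) values from 0.996 to 0.997. Scel, a protein of the cornified envelope, had 15.4 RPKM in VSG stomach and 33.9 RPKM in sham stomach. Dmkn, dermokine, had 191 RPKM in VSG stomach and 359.6 RPKM in sham stomach. All 5 were low elsewhere, so r rests on the split between stomach and intestine, and 13302 genes were ranked.

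Gsdmd was high in every part of the intestine apart from the library labelled sham duodenum. It had 240.2 RPKM in VSG jejunum and 255 RPKM in sham jejunum, and 214 RPKM in VSG ileum and 198 RPKM in sham ileum. VSG duodenum, at 209 RPKM, lay within the range of ileum. Colon followed with 89.9 RPKM after VSG and 79.3 RPKM after sham, and stomach with 47.5 RPKM after VSG and 24.1 RPKM after sham. The library labelled sham duodenum had 1.46 RPKM of Gsdmd.

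Gsdmd and the Gsdmc group thus had different maxima. Of the summed level of the 6 genes, Gsdmd held 93.9% in VSG jejunum and 97.8% in sham jejunum, 56.3% in VSG ileum and 71.6% in sham ileum. In colon it held 8.72% after VSG and 7.63% after sham. Jejunum stood 2.93-fold above colon for Gsdmd on the mean of both operations. The fitted difference of colon from the other tissues was -0.51 ± 0.22 for Gsdmd, and that of stomach was -2.23 ± 0.22, where 9.76% of genes tested were lower in stomach.

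The VSG to sham ratio of Gsdmd was 1.97 in stomach (1.88 to 2.06), a difference of 0.95 on the log2(RPKM + 1) scale. It was 1.08 in ileum (1.06 to 1.10) and 1.13 in colon (1.09 to 1.18). In jejunum it was 0.943 (0.923 to 0.963), which turned to 1.02 when both libraries were rescaled to 1 total, so no direction is given there. Beside the stomach value, macrophage genes were higher after VSG in 6 of 6 cases. Their sums were 2219 RPKM in VSG stomach and 104 RPKM in sham stomach. Most of both sums was Lyz2, with 1737 RPKM in VSG stomach and 67.5 RPKM in sham stomach. Neutrophil genes were also higher in 6 of 6 cases, with 1345 RPKM in VSG stomach and 11.3 RPKM in sham stomach. Their part in the higher Gsdmd was not tested.

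The genes most like Gsdmd over the same 9 libraries were Pnp2, Adprm, Pstpip2, Abhd17c and Rwdd2b (r from 0.990 to 0.994). Pnp2, a purine nucleoside phosphorylase, had 139 RPKM in VSG jejunum and 182 RPKM in sham jejunum, against 49.0 RPKM in VSG colon and 42.2 RPKM in sham colon. The genes most like Gsdmc4, the Gsdmc gene with the highest mean, were Hsd17b2, Fam83f, Mir196a-1, Trpm6 and Gm53 (r from 0.970 to 0.978) in a ranking that left out the 6 gasdermins. Trpm6, a magnesium channel, had 11.8 RPKM in VSG colon and 10.7 RPKM in sham colon, against 4.68 RPKM in VSG ileum and 4.01 RPKM in sham ileum. Among the gasdermins themselves, r was 0.993 between Gsdmc2 and Gsdmc3, 0.986 between Gsdmc3 and Gsdmc4, and 0.772 between Gsdmc and Gsdmc4. These copies share coding stretches, and the part of shared reads in their likeness was not tested.

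Of the other gasdermins, Gsdme had its maximum in ileum, with 64.6 RPKM after VSG and 61.6 RPKM after sham. It had 11.5 RPKM in VSG colon and 10.9 RPKM in sham colon, 3.81 RPKM in VSG jejunum and 3.79 RPKM in sham jejunum, and 2.09 RPKM in VSG stomach and 0.330 RPKM in sham stomach. Gsdme was lower in stomach than in jejunum, ileum and colon (log2 difference -2.94 ± 0.27, limma adjusted p = 0.00145), and Gsdma2 was higher there (7.76 ± 0.30, limma adjusted p = 0.000105). Both calls held in 13 of 13 alternatives on the realigned table. Pjvk, a gasdermin gene of the inner ear, had at most 6 reads in any library.

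The genes around the gasdermins were counted in lists. Over the 4 tissues, 0 genes of any list passed the VSG against sham test. Within a tissue they were counted over every listed gene with a read, whatever its level, and in stomach 9.37% of all 19143 genes with a read were at least 2-fold higher on the log2(RPKM + 1) scale after VSG and 2.86% lower. Of 8 gasdermin-cleaving proteases, 4 were at least 2-fold higher in stomach after VSG and 0 lower, with a median log2 difference of 1.34 beside -0.00686 over all genes. Casp1, which cuts Gsdmd, had 14.2 RPKM in VSG stomach and 3.63 RPKM in sham stomach. Casp4, the mouse sensor of cytosolic lipopolysaccharide, had 6.01 RPKM in VSG stomach and 0.543 RPKM in sham stomach. The neutrophil protease Elane had 9.07 RPKM in VSG stomach and was listed at 0 in sham stomach, and Ctsg, which encodes cathepsin G, had 4.01 RPKM in VSG stomach and 0.0127 RPKM in sham stomach.

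Of 15 inflammasome genes, 4 were at least 2-fold higher in stomach after VSG and 1 lower, beside the same shares of 9.37% and 2.86%, with a median log2 difference of 0.25. The lower one was Naip6, with 0.960 RPKM in VSG stomach and 3.20 RPKM in sham stomach. Nlrp6, a sensor of gut epithelium, had 7.67 RPKM in VSG stomach and 0.217 RPKM in sham stomach. Nlrp3 had 3.55 RPKM in VSG stomach and 0.0685 RPKM in sham stomach, and Mefv, the gene of pyrin, had 4.79 RPKM in VSG stomach and 0.0929 RPKM in sham stomach. Aim2, a sensor of cytosolic DNA, had 3.68 RPKM in VSG stomach and 0.669 RPKM in sham stomach. These are the genes with the widest differences, in a pair where the macrophage and neutrophil sums above differed in the same direction, and their part was not tested.

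Of 8 genes of released cytokines and membrane rupture, 5 were at least 2-fold higher in stomach and 0 lower, beside 9.37% and 2.86% of all genes. Il1b had 32.1 RPKM in VSG stomach and 0.338 RPKM in sham stomach, and its antagonist Il1rn 54.1 RPKM in VSG stomach and 5.35 RPKM in sham stomach. Il18bp, which binds interleukin-18, had 6.80 RPKM in VSG stomach and 1.11 RPKM in sham stomach, and Ninj1, which ruptures the plasma membrane after pore formation, 110.5 RPKM in VSG stomach and 37.0 RPKM in sham stomach. Of 11 regulators of Gsdmd and of pore repair, 3 were at least 2-fold higher (Irf1, Gbp2 and Gbp5) and 0 lower, beside the same shares. Irf1, a transcription factor of interferon responses, had 31.2 RPKM in VSG stomach and 7.72 RPKM in sham stomach, and the guanylate-binding protein genes Gbp2 and Gbp5 had 39.0 and 7.00 RPKM in VSG stomach, against 7.87 and 1.13 RPKM in sham stomach. Gbp3 missed the 2-fold mark, with 8.41 RPKM in VSG stomach and 3.85 RPKM in sham stomach.

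In jejunum, ileum and colon, 0 genes of these 4 lists were 2-fold apart on the log2(RPKM + 1) scale. Of all genes with a read, 0.547% in jejunum, 0.119% in ileum and 0.332% in colon were at least 2-fold higher there after VSG, and 0.204%, 0.0976% and 0.0482% lower in the same order, so a count of 0 does not set lists of this size apart. That scale understates low genes. As plain ratios, intervals clear of 1 lay on either side, as for Casp4 in jejunum at 1.97 (1.74 to 2.24) and Il18bp in ileum at 0.473 (0.383 to 0.582). No gene of these lists had an interval wholly below 0.5 in these tissues, and 2 cytokine genes in jejunum had one wholly above 2. Il1b had 135 reads in VSG jejunum and 48 reads in sham jejunum, a ratio of 3.00 (2.15 to 4.27), and Il1rn had 123 reads in VSG jejunum and 44 reads in sham jejunum, a ratio of 2.99 (2.10 to 4.32). Macrophage and neutrophil genes were higher in 6 of 6 cases each in that pair, and their part was not tested. Of 11 genes of the type 2 cytokine list, 3 were at least 2-fold higher in stomach and 0 lower, beside 9.37% and 2.86% of all genes. Il2rg and Il4ra, receptor chains for interleukin-4, had 16.4 and 25.3 RPKM in VSG stomach, against 1.42 and 6.24 RPKM in sham stomach. Clca1, a goblet cell product, had 440.1 RPKM in VSG stomach and 90.0 RPKM in sham stomach. Goblet cell genes, Clca1 among them, were higher there after VSG in 4 of 4 cases. Their sums were 806 RPKM in VSG stomach and 226 RPKM in sham stomach, and the part of these cells was not tested.

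In ileum 1 of 10 genes of the type 2 list with a read passed the mark, beside 0.119% of all genes higher and 0.0976% lower. Retnlb, an antimicrobial product of goblet cells, had 3.02 RPKM in VSG ileum and 0.287 RPKM in sham ileum. The receptor chain Il4ra had 15.9 RPKM in VSG ileum and 14.6 RPKM in sham ileum. The ligands were near the limit of detection, with at most 0.190 RPKM of Il4 and 0.116 RPKM of Il13 in any library.

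Along the gut, the pathway genes were set against the same 4 tissues, and the genes named next were chosen after their values were seen. Of all genes tested, 9.01% were higher in stomach than the mean of jejunum, ileum and colon and 9.76% lower. In stomach 10 of the 12 inflammasome genes that passed the filter, of 15 listed, were lower than that mean and 2 higher (Nlrp10 and Nek7). Single tissues could differ from the mean. Aim2, counted as lower, averaged 2.17 RPKM in stomach and 1.34 RPKM in jejunum. Nek7, counted as higher, averaged 15.3 RPKM in stomach and 14.2 RPKM in colon, with overlapping values. Nlrp6 had a log2 difference of -4.25 ± 0.67 (limma adjusted p = 0.00748). Of 7 proteases 4 were lower in stomach and 0 higher, with a log2 difference of -3.40 ± 0.38 for Casp1 (limma adjusted p = 0.00269). Gzma, 1 of the 4, averaged 0.434 RPKM in stomach, 0.408 RPKM in colon, 4.40 RPKM in ileum and 17.7 RPKM in jejunum. Gsdmd, in the same fit, differed by -2.23. Of 8 cytokine and rupture genes 3 were higher in stomach and 0 lower, of 11 regulators 0 higher and 2 lower, and of 8 type 2 genes 0 higher and 2 lower. The median log2 difference was -1.75 for the inflammasome list and -1.42 for the proteases, beside -0.06 over all genes. With both duodenum libraries added, all 10 of the lower inflammasome calls, the call of Nek7 and all 4 protease calls were lost. Nlrp10, higher in stomach, was the inflammasome gene that still passed. Among the lower calls, that of Aim2 held in 5 of 13 alternatives on the realigned table and that of the regulator Irf1 in 4 of 13.

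In colon 3 of these 12 inflammasome genes were higher than the mean of stomach, jejunum and ileum and 0 lower. Of all genes tested, 8.21% were higher and 4.38% lower. A low stomach value alone can give such a call. Nlrp9b, 1 of the 3, averaged 12.6 RPKM in colon, 12.9 RPKM in ileum, 11.8 RPKM in jejunum and 0.0207 RPKM in stomach. Naip1, a sensor of bacterial secretion needles, differed by 2.06 ± 0.08 (limma adjusted p = 0.000399) and Aim2 by 2.57 ± 0.29 (limma adjusted p = 0.00411). With both duodenum libraries added Naip1 no longer passed (limma adjusted p = 0.153 under that alternative, the highest of 13). Without VSG colon or without sham colon Aim2 no longer passed, with adjusted p up to 0.0693 over 13 alternatives. Casp1 passed narrowly (1.31 ± 0.38, limma adjusted p = 0.0457) and did so in 4 of 13 alternatives. It averaged 95.9 RPKM in colon, 87.0 RPKM in ileum, 80.2 RPKM in jejunum and 8.90 RPKM in stomach. Retnlb was the gene of the type 2 list with the widest colon difference, 5.99 ± 0.37 (limma adjusted p = 0.000929). It had 103.9 RPKM in VSG colon and 70.5 RPKM in sham colon, and it passed in 13 of 13 alternatives. In the other lists, 1 protease was higher in colon and 2 lower (of 7), and 1 cytokine gene higher and 2 lower (of 8). Of 8 type 2 genes 2 were higher and 0 lower, and 0 of 11 regulators passed. Over the 13 alternatives, the call of Gzma held in 10, Gzmb in 7, Il33 in 13, Il1a in 3, Il1rn in 5 and Clca1 in 6. Il1rn, counted as higher, averaged 20.9 RPKM in colon and 29.7 RPKM in stomach.

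**Figure D4:**
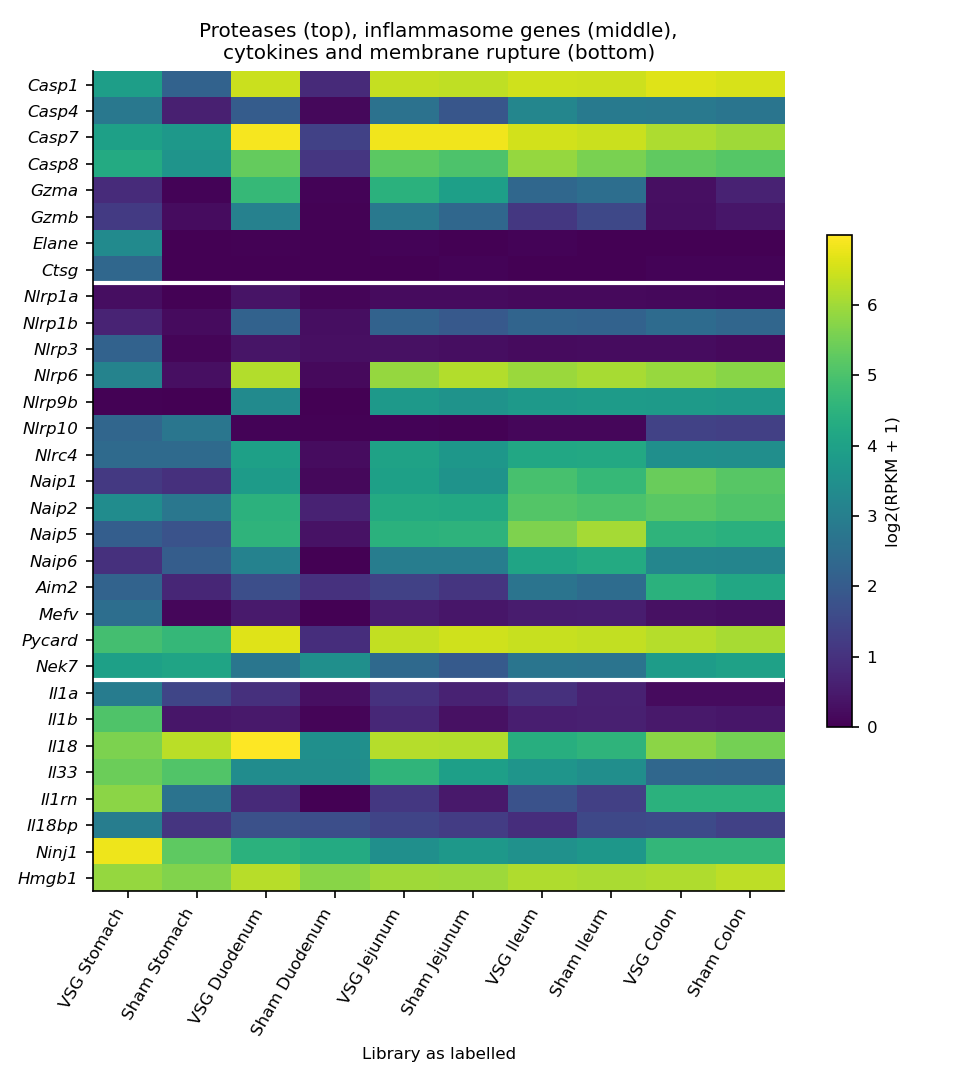
Heat map of log2(RPKM + 1) of gasdermin-cleaving proteases (top), inflammasome genes (middle) and genes of released cytokines and membrane rupture (bottom), by library with VSG left of sham in each tissue. Casp1 is at 79.2 to 98.5 RPKM in jejunum, ileum and colon, against 14.2 RPKM in VSG stomach and 3.63 RPKM in sham stomach, and Il1b is bright in VSG stomach at 32.1 RPKM.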

How the data were processed

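The authors deposited 1 table of RPKM values for 23079 Entrez genes and 10 libraries. GSNAP, Cufflinks and the build mm10 appear in the submitters' processing notes, without versions or roles. RNA was extracted with TRIzol and prepared with a TruSeq kit, per the labels' protocols. How multiply mapped or paired reads were counted, and on which annotation, is not stated. Symbols came from RefSeq for 23008 identifiers.

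In rows 27 to 18213 the intestinal columns stood 1 row below their identifiers and were moved back. Of 1500 genes sampled there, 68 gave whole reads at 1 gene length (tolerance 0.001 reads) as deposited and 1499 after the move. Reads so recovered served for exact Poisson and conditional binomial intervals at 95% confidence and for a floor of 3 reads, and the step was tested on simulated data. Genes with 2 reads outnumbered those with 1 read in 9 libraries, which mates counted separately would also give, so intervals were repeated on 0.5 of the reads, an alternative chosen after seeing the data.

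The main tests used limma 3.58.1 (R 4.3.3) with a mean-variance trend on log2(RPKM + 1) in the 8 libraries outside duodenum, for genes averaging 1 RPKM or more, with Benjamini-Hochberg adjustment. There are 3 residual degrees of freedom. With 1 library per tissue and operation, they hold only how unevenly the VSG to sham difference ran over the tissues, possibly technical. A p-value is measured against that unevenness. It does not cover spread among animals, since no label says that libraries came from separate animals. Tissue calls needed an adjusted p under 0.05 and 2-fold. Within a tissue, 2-fold on the same scale is a description, and pathway lists were counted there over all genes with a read, a choice made after seeing that the filter kept some genes through 1 library. The genes and lists were chosen with earlier results of these data known. In the protease list, 1 gene is not reported here and enters no count. Named pathway genes are, per list, up to 4 with the widest VSG to sham difference in a tissue other than duodenum. Coding sequences are GENCODE M21, and figures were drawn with matplotlib 3.10.9. Alternatives were a pseudocount of 0.1, no filter, no trend, no tissue block, rescaled libraries, rows as deposited, all 5 tissues, and each library or tissue left out.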

Additional observations from a re-analysis of the deposited data

Results flagged for a closer look

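Gsdmc3 was higher after VSG in 3 tissues and lower in colon. Its VSG to sham ratio was 3.01 in stomach, 3.65 in jejunum and 2.17 in ileum, against 0.943 in colon. With 1 library per group, the difference between tissues was not tested. After rescaling to 1 total the colon ratio of Gsdmc3 was 0.922, beside 1.01 for Gsdmc, 0.971 for Gsdmc2 and 0.983 for Gsdmc4.

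Gsdmd was 1.97 times as high after VSG in stomach, 1.08 times in ileum and 1.13 times in colon, against 0.943 times in jejunum. The difference between tissues was not tested, and the jejunum ratio was 1.02 after rescaling to 1 total.

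A pseudogene of the Gsdmc group, Gsdmcl-ps, lies at chr15:63914461-63925453 beside Gsdmc4 and was not among the genes chosen. It had 32 reads in VSG ileum and 6 reads in sham ileum, a ratio of 6.84 (2.82 to 20.0), and 106 reads in VSG colon and 87 reads in sham colon, a ratio of 1.40 (1.04 to 1.88). From 0.5 of the reads, the colon interval was 0.927 to 2.16 and the ileum interval 1.96 to 36.6. Whether these reads came from the neighbouring genes was not tested.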

How the results depend on the processing

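Intervals from 0.5 of the reads, an alternative chosen after seeing the data, again lay above 1 for 15 of the 24 ratios of the 6 genes in stomach, jejunum, ileum and colon, below 1 for 3 and across 1 for 6. The count of genes separating colon, 1682, was 4404 with rows as deposited, 435 with all 5 tissues and 654 to 2287 with 1 library left out (721 without VSG colon, 654 without sham colon). For stomach, 2507 genes became 8519 and 846, and 2209 to 3343 with 1 library left out. The surgery fit gave 0 to 2 genes with 1 tissue left out, 2 without stomach. With a pseudocount of 0.1, the 2-fold genes numbered 205 in place of 124 in jejunum, 77 in place of 33 in ileum and 96 in place of 62 in colon. Rescaling turned the duodenum split of 3975 higher and 4039 lower into 3038 and 4968. With rows as deposited, Gsdmd in duodenum had a difference of 0 on the log2 scale. The cause of these shifts was not tested, but rows as deposited pair unlike genes.

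For the colon calls of the lists, with all 5 tissues there were 0 other gasdermins, 0 proteases, 1 inflammasome, 1 cytokine and 1 type 2 gene. Rows as deposited gave 1 protease and 1 regulator, no filter 1 cytokine gene, and a pseudocount of 0.1 gave 7 inflammasome genes. With 1 library left out the colon lists gave 0 to 1 other gasdermins, 0 to 4 proteases, 2 to 5 inflammasome, 1 to 4 cytokine and 1 to 2 type 2 genes. For the stomach calls, all 5 tissues gave 0 proteases, 1 inflammasome, 0 regulators and 1 type 2 gene. Rows as deposited gave 4 other gasdermins, 7 cytokine, 5 regulator and 5 type 2 genes, and no filter 1 regulator. With 1 library left out they gave 2 to 6 cytokine genes and 1 to 4 regulators, the highest of both without sham stomach. The labels give no replicate numbers. The surgery fit paired VSG with sham by tissue, and without that tissue block it also gave 0 genes. Depth limits Gsdmc in duodenum, where it had 5 and 2 reads.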
